A study of Homo sapiens with 30 samples.

Results

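The zinc finger genes named ZNF code for proteins that carry Cys2His2 fingers, short folds held by a zinc ion that each read a few bases of DNA. Many of these proteins also carry a KRAB domain, which binds the corepressor TRIM28. TRIM28 in turn brings the histone methyltransferase SETDB1, HP1 proteins and the nucleosome remodelling complex NuRD to the bound site, and the best known sites are retrotransposons. Genes of the family lie in clusters, above all on chromosome 19, and proteins without KRAB have more varied roles, from ribosome assembly to splicing. The genes described here were chosen by name and level: they are protein-coding genes with a symbol of ZNF, a number and at most 1 letter, whose mean over the 30 libraries was at least 5 CPM (the depth-scaled level, a library's count relative to its column total). Of 60675 gene rows in the table, 509 had such a symbol and 267 of these reached the minimum. The other 242 lay below it, 20 of them at 0 in every library. The lowest members were ZNF155 at 5.09, ZNF616 at 5.07 and ZNF17 at 5.01 CPM, and the highest candidates left out were ZNF35 at 4.96, ZNF324B at 4.87 and ZNF25 at 4.64 CPM. The rule itself used the level over all libraries and no comparison between groups. It was set, like the gene lists used below, with earlier results of these data known, so that the choice was not blind.

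The cells were A549, an established line of human lung carcinoma cells, and every group came from this 1 line. They received for 24 h an ethanol extract of 1 of 4 herbal formulas of Korean medicine, each at 20 (low), 100 (medium) or 500 (high) µg/mL, or vehicle, which is 0.1% DMSO in the sample labels and 2% DMSO in the series' design text. Palmul-tang joins the herbs of Samul-tang and Sagunja-tang, and Sibjeondaebo-tang adds further herbs to Palmul-tang. Vehicle, each dose of Palmul-tang and each dose of Sibjeondaebo-tang had 3 libraries, each dose of Samul-tang had 2 and each dose of Sagunja-tang had 1, which makes 13 groups. No Sagunja-tang comparison was tested. The labels do not say that replicates were separate cultures, so that p-values only reflect how far these libraries lie apart, and that may be technical.

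Library totals lay between 23986637 and 35159898 expected counts (median 32383996). The biological coefficient of variation of the fit was 0.0496, and log2 CPM of replicates correlated at 0.99 to 0.993. Of the markers of the line, KRT8 (3260 to 4390 CPM) and AKR1B10 (3420 to 4650 CPM) were high in all libraries. EPCAM was much lower, at 17.1 to 24.4 CPM. Of the blood and endothelial markers PTPRC, CD3E, VWF and CDH5, none was above 0.228 CPM in any library, PECAM1 reached 0.445 and CD14 3.17 CPM, and the fibroblast genes COL1A1, COL3A1 and DCN reached 2.5, 11.2 and 7.07 CPM. Mitochondrial genes took 15 to 20% of the counts, and 18.5 to 19.9% in the Sibjeondaebo-tang high libraries.

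A KRAB domain was found in 155 of the 267 members and not in 112, and 19 had a SCAN domain, 14 of them beside KRAB. The members lay on 21 chromosomes, 102 of them on chromosome 19, where 81 carried KRAB. Their longest reading frames held a median of 10 fingers and at most 34, and 6 members had none by the pattern used. The median member had a mean of 13.1 CPM. The largest read counts belonged to ZNF207 (BuGZ, a kinetochore protein that binds BUB3) at 211, ZNF664 at 167, ZNF146 at 143, ZNF638 at 96.6 and ZNF609 at 94.1 CPM. Per kilobase of exon, levels ran from 0.403 CPM for ZNF26 to 34.6 for ZNF146, with a median of 2.29. TRIM28, for comparison, stood at 94.3 CPM per kilobase.

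Promoters are shown for 5 members, because they stand for both directions of change described next: ZNF594, ZNF33A and ZNF33B had among the largest falls, and ZNF628 and ZNF787 rose. Each was taken from RefSeq on GRCh38.p14, spans the start that RefSeq gives for the gene, lies mostly before it and runs along the gene's own strand. GENCODE 29, from which gene positions in the text are taken, starts ZNF628 further upstream, so that the ZNF628 window lies inside that gene model. They are ZNF594 (ENSG00000180626, chr17:5191819-5192118, minus strand), ZNF33A (ENSG00000189180, chr10:38010425-38010724, plus strand), ZNF33B (ENSG00000196693, chr10:42638521-42638820, minus strand), ZNF628 (ENSG00000197483, chr19:55476367-55476666, plus strand) and ZNF787 (ENSG00000142409, chr19:56121246-56121545, minus strand). Capitals mark, on either strand, the GC box GGGCGG, the CCAAT box, the ETS core CCGGAAG and the NRF1 core GCATGCG; 2 ETS cores on opposite strands overlap in ZNF787.
ZNF594: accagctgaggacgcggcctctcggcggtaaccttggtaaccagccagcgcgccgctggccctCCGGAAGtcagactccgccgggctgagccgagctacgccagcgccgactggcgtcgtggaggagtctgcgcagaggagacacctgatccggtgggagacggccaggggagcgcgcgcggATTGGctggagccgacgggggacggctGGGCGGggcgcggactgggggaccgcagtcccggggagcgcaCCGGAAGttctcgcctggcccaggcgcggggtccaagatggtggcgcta
ZNF33A: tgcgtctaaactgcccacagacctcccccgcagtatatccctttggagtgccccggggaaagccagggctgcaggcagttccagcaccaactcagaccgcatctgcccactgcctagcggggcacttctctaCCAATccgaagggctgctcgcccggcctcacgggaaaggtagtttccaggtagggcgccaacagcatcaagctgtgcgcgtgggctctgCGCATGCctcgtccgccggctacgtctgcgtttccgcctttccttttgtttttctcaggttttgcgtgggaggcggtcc
ZNF33B: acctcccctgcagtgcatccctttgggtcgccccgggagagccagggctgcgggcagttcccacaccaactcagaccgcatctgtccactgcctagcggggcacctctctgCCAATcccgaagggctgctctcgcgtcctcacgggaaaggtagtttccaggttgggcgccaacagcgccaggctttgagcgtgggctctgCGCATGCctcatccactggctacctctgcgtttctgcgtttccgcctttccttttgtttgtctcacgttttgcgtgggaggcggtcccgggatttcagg
ZNF628: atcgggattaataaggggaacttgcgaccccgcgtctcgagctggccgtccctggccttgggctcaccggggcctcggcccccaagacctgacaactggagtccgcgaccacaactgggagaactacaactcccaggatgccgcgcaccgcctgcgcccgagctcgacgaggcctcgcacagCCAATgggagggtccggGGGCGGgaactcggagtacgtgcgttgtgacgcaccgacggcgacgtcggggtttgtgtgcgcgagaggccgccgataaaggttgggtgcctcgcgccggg
ZNF787: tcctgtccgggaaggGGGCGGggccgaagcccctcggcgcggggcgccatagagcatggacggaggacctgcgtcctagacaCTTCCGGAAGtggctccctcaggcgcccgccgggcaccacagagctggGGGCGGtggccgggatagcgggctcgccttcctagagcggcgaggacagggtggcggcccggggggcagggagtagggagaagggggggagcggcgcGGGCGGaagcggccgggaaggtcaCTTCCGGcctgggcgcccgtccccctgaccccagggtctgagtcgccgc

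ZNF33A and ZNF33B, KRAB genes on the short and the long arm of chromosome 10, had promoters identical at 78.9% of aligned positions, each with 1 CCAAT box and 1 NRF1 core. The other pairs of these 5 promoters were identical at 48.8 to 55.9% of positions. Of the 267 members 231 had a promoter in the RefSeq table. The ETS core, a letter run bound by factors such as GABPA and ELK1, stood in 40.7% of the members' promoters, against 20.9% of 8333 other protein-coding genes at the same minimum level and 10.7% of all 27305 promoters of this length. In the same order, the TATA box TATAAA was in 2.6%, 5.18% and 12%, the GC box in 59.7%, 72.2% and 44.6%, CCAAT in 40.7%, 36.9% and 35.7%, the E-box CACGTG in 6.93%, 10.7% and 7.43%, and the NRF1 core in 7.36%, 6.86% and 4.13%. With KRAB 45.7% of promoters held the ETS core and without it 33.3%. It stood in 36 of 90 promoters of members that fell with Sibjeondaebo-tang and in 12 of 27 of those that rose. These shares are descriptions without a test.

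At the high dose of Sibjeondaebo-tang more of these genes fell than rose. Against the low dose, 100 of the 267 members fell and 32 rose in edgeR's quasi-likelihood test (adjusted p under 0.05 over all 17701 genes tested), and the median member changed by -0.11 on the log2 scale, with a median of -0.01 over all genes tested. Members thus fell in 37.5% and rose in 12% of cases, while over all genes tested 19.9% fell and 18.5% rose. Among 10114 other protein-coding genes with a mean of at least 5 CPM, 20% fell and 30% rose, with a median of 0.053. Changes were small in size: the range ran from -0.91 to 0.45, 26 of the falls and 0 of the rises passed 1.5-fold, and 156 members had an unadjusted p under 0.05. The counts by fold and by unadjusted p only describe the members, since the same counts over all genes tested are not given beside them. All 3 high libraries lay below all 3 low libraries in 122 members (45.7%, against 24.7% of all genes tested) and above them in 39 (14.6%, against 22.7%). The split moved with the scaling. With library totals alone in place of TMM factors, 155 members fell and 7 rose, since the median of all genes then moved to -0.16 and that of the members to -0.26. Of all genes tested, 6075 then fell and 649 rose.

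The members' share of all counts in the Sibjeondaebo-tang high libraries was 0.4519 to 0.4567%, and 0.5026 to 0.5496% in the other 27 libraries. Of the non-mitochondrial counts the members took 0.5587 to 0.5641% in those 3 libraries and 0.6104 to 0.667% elsewhere, without overlap either. The mitochondrial share itself was 18.5 to 19.9% in the high and 15.01 to 17.9% in the low libraries of Sibjeondaebo-tang. The summed level of the KRAB members, in CPM scaled by TMM as are all CPM from here on, was 1745 to 1764 in the Sibjeondaebo-tang high libraries. It was 1870 to 1960 in vehicle and 1950 to 2061 in the other 24 extract libraries, so that the 3 Sibjeondaebo-tang high libraries lay below both of these ranges, which overlap each other. For the members without KRAB the sum was 3132 to 3133 at the Sibjeondaebo-tang high dose, 3245 to 3378 in vehicle and 3174 to 3318 in the other extract libraries. Abundant genes weigh most in a sum. The median deviation of members from their own mean log2 CPM separated these libraries less. With KRAB it was -0.132 to -0.117, -0.119 to -0.035 in vehicle and -0.01 to 0.081 in the other extract libraries. Without KRAB it was -0.019 to -0.014 at the Sibjeondaebo-tang high dose, within the -0.028 to 0.034 of the other extract libraries. Vehicle lay at 0.05 to 0.116. In bulk RNA fewer cells that express a gene and less RNA per cell cannot be told apart.

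**Figure D1:**
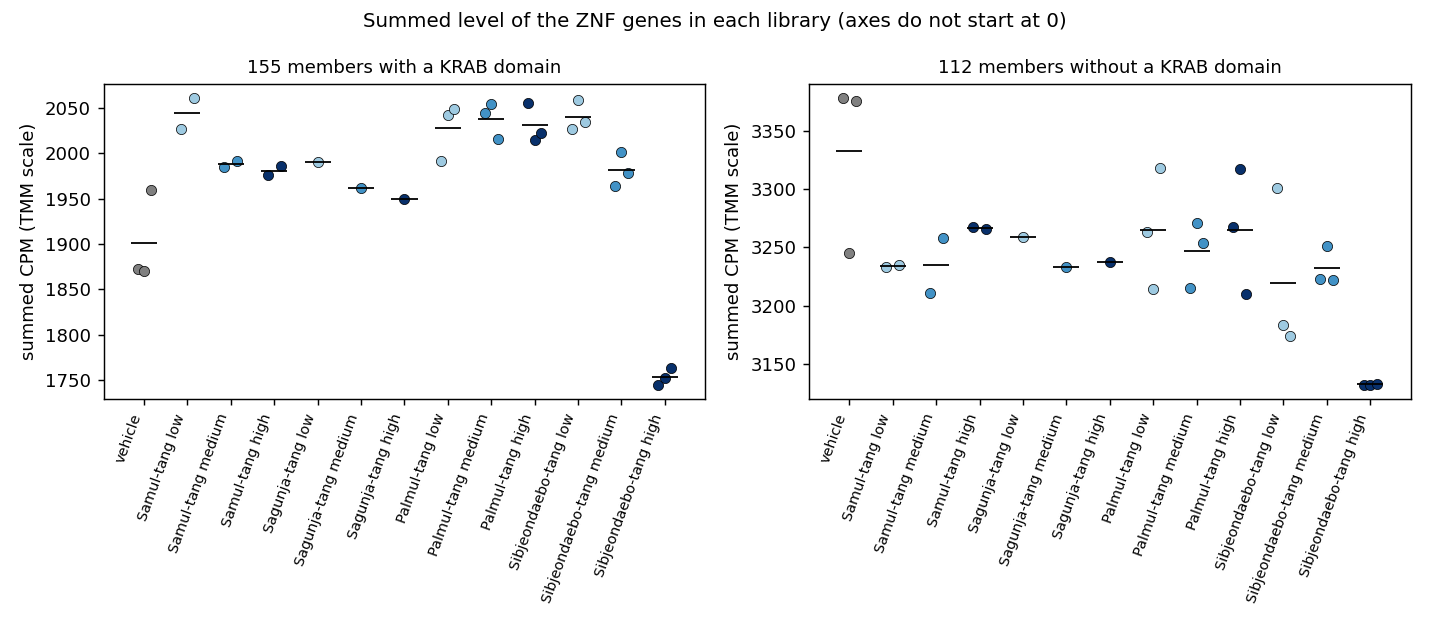
Each point is 1 library and each line a group mean; the vertical axes give the CPM (TMM scale) summed over the 155 members with a KRAB domain (left) and the 112 without (right), and do not start at 0. The 3 Sibjeondaebo-tang high libraries have the lowest sums in both panels, at 1745 to 1764 and at 3132 to 3133. Abundant genes weigh most in these sums, and the median member did not separate the libraries in the same way.

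By domain, 69 of 155 KRAB members fell and 9 rose (44.5% and 5.81%), with a median of -0.18. Of the 112 members without KRAB 31 fell and 23 rose (27.7% and 20.5%), with a median of 0.0008, which became -0.15 with library totals alone, where the KRAB median was -0.34. Of 66 other genes of Cys2His2 families 21 fell and 5 rose, with a median of -0.052. Of the 19 SCAN members 7 fell and 1 rose. KRAB members fell on chromosome 19 (33 of 81, 4 rose, median -0.18) and on the other chromosomes (36 of 74, 5 rose, median -0.21). The 21 chromosome 19 members without KRAB had 3 falls and 7 rises, with a median of 0.11. These counts by chromosome, SCAN and other family are on the TMM scale only, and none of the differences between groups of members was tested.

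**Figure D2:**
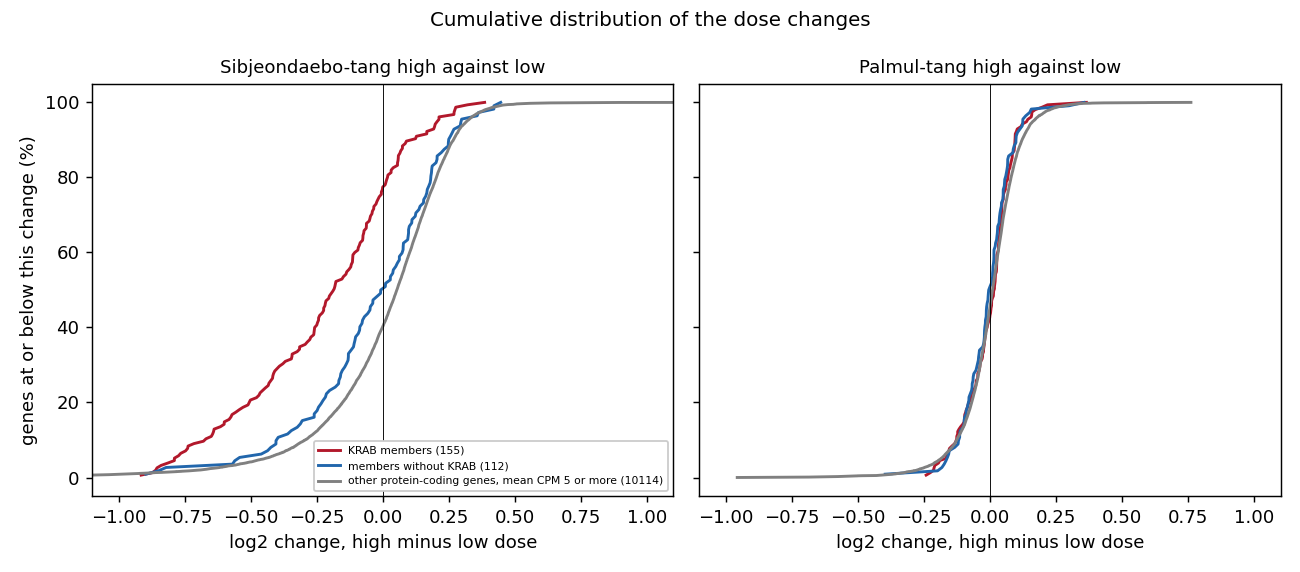
Cumulative share of genes (vertical axis, %) at or below each log2 change of the high against the low dose (horizontal axis) in Sibjeondaebo-tang (left) and Palmul-tang (right), for KRAB members, members without KRAB and other protein-coding genes of at least 5 CPM. In Sibjeondaebo-tang the KRAB line lies to the left of the others, with a median of -0.18, and in Palmul-tang the 3 lines lie close together, with KRAB at a median of 0.017.

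The change varied with the number of fingers, the length and the base composition of the members, whose part in it was not tested. Of members with 15 or more fingers 31 of 59 fell and 4 rose (median -0.24), with 10 to 14 fingers 31 of 79 and 7, with 4 to 9 fingers 30 of 95 and 12, and with 0 to 3 fingers 8 of 34 and 9. Across the 267 members the log2 change had a Spearman rho of 0.4 with the GC content of the longest transcript, -0.38 with exon length and -0.23 with the number of fingers; genes are not independent replicates, and these values are descriptions. In the 10114 other protein-coding genes, 10110 of them with a GC value, rho was 0.23 with GC content and -0.44 with exon length. Below 45% GC 69 of 134 members fell and 4 rose, from 45 to 55% GC 21 of 70 and 6, and at 55% or more 10 of 63 and 22. KRAB members had a median GC content of 43.3% and members without KRAB 51.4%. An offset per library fitted on GC content left 102 falls and 28 rises, where 3537 of 17570 genes fell and 3368 rose. One on GC content and the length of the longest transcript left 100 and 34, with 3443 and 3304 over all genes. No offset was fitted on exon length. Under the GC offset 100 of the 100 falls and 25 of the 32 rises were the same calls, and the KRAB members had 71 falls and 10 rises. Falls were found at every level: 33 of 98 members between 5 and 10 CPM, 34 of 86 between 10 and 20 and 33 of 83 above 20 fell. Rises were less even, as 29 of the 32 were among the 169 members of at least 10 CPM. Of the 152 members whose deposited counts were whole in all libraries 49 fell and 18 rose.

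ZNF514, a KRAB gene with 8 fingers on chromosome 2 (95147330 to 95165413, GRCh38), had the largest fall. Its exons overlap MRPS5, although its counts were whole in all libraries. Its level was 20.7, 22.6 and 19.5 CPM at the low dose, 17.7, 21.7 and 19.9 at the medium dose and 11.6, 10.3 and 11.3 at the high dose of Sibjeondaebo-tang. The low and medium values overlapped, all 3 high values lay below them and below vehicle (16.1 to 18.9), and the change was -0.91 ± 0.09 (SE, adjusted p = 3.54e-09). ZNF594 on chromosome 17 (5179536 to 5191883) has 22 fingers and no KRAB. It stood at 5.50, 6.79 and 5.86 CPM at the low dose, 5.61, 5.72 and 5.65 at the medium dose and 3.28, 3.30 and 3.17 at the high dose, a change of -0.9 ± 0.1 (adjusted p = 1.51e-08). Its lowest value in the other 27 libraries was 4.34, in vehicle. ZNF112, a KRAB gene on chromosome 19 (44326555 to 44367217) that overlaps another gene on its strand, fell from 6.55, 6.28 and 5.74 CPM to 3.56, 3.30 and 3.37, by 0.86 ± 0.11 on the log2 scale (adjusted p = 1.51e-07). ZNF75D, a KRAB and SCAN gene on the X chromosome (135248920 to 135344087), fell from 10.1, 10.6 and 10.9 CPM to 6.02, 5.98 and 6.27 (-0.79 ± 0.098, adjusted p = 1.22e-07), but vehicle at 5.88, 6.68 and 8.85 overlapped the high dose.

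ZNF692, also known as AREBP, has 5 fingers and no KRAB and lies on chromosome 1 (248850006 to 248859144). It fell from 26.9, 26.7 and 25.1 CPM at the low dose to 13.8, 14.6 and 16.2 at the high dose (-0.82 ± 0.08, adjusted p = 2.02e-09), below vehicle at 28.0 to 29.2. ZNF33B on chromosome 10 (42574185 to 42638568), whose promoter is shown above, fell from 22.3, 24.3 and 23.6 CPM to 13.2, 12.4 and 13.6 (-0.84 ± 0.077, adjusted p = 3.03e-10). Its near copy ZNF33A (38010650 to 38065088), named here after its values were seen, went from 35.8, 37.7 and 37.3 to 20.4, 22.0 and 22.8 CPM (-0.76 ± 0.058, adjusted p = 5.29e-12). Both genes of this pair had counts that were not whole in 11 libraries, so that some reads were split between similar genes. In both, the medium dose lay between the others, at 20.2 to 21.4 CPM for ZNF33B and 33.2 to 34.3 CPM for ZNF33A.

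The other 4 of the 10 largest falls overlap neighbours and had counts that were not whole in 21 to 30 libraries, so that their levels are less certain. ZNF276 on chromosome 16 (89720400 to 89740903) overlaps FANCA and VPS9D1 on the opposite strand. It fell from 27.0, 30.8 and 29.9 CPM to 16.8, 16.1 and 15.8 (-0.85 ± 0.079, adjusted p = 9.68e-10), and its vehicle level was higher still, at 33.9 to 35.6. ZNF783 on chromosome 7 (149262171 to 149297302) overlaps another gene on its own strand and fell from 10.8, 11.99 and 11.4 to 6.30, 5.57 and 6.77 CPM (-0.87 ± 0.1, adjusted p = 3.42e-08). ZNF789, also on chromosome 7 (99472841 to 99503650), lies opposite ZNF394 and fell from 7.40, 7.42 and 7.84 to 4.63, 3.94 and 3.96 CPM (-0.85 ± 0.098, adjusted p = 2.52e-08). ZNF891 on chromosome 12 (133106817 to 133130473) lies opposite ZNF140 and fell from 7.88, 7.13 and 7.90 to 4.06, 4.20 and 4.75 CPM (-0.81 ± 0.092, adjusted p = 1.96e-08). Neighbours of ZNF891 at this end of chromosome 12, chosen after their values were seen, did not all move: the log2 change was -0.61 for ZNF10 and -0.43 for ZNF84, which passed, and -0.062 for both ZNF140 and ZNF268, which did not.

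The 6 largest rises were in GC-rich genes, 5 of them without KRAB. ZNF628 on chromosome 19 (55476332 to 55484487, 16 fingers, 70.4% GC) went from 7.94, 7.33 and 8.77 CPM at the low dose to 10.83, 10.88 and 11.02 at the high dose, by 0.45 ± 0.09 (adjusted p = 0.000171). ZNF787, also on chromosome 19 (56087366 to 56121280), went from 39.9, 37.1 and 37.8 to 48.5, 49.6 and 49.0 CPM (0.36 ± 0.061, adjusted p = 1.98e-05). ZNF385A on chromosome 12 (54369133 to 54391298), known as HZF and a target and partner of p53, went from 17.9, 16.2 and 15.6 to 21.6, 21.7 and 23.2 CPM (0.42 ± 0.079, adjusted p = 7.59e-05). In each of the 3 genes the high dose lay above the low dose without overlap and within the range of vehicle, which was 10.2 to 11.3 CPM for ZNF628, 47.0 to 52.6 for ZNF787 and 21.2 to 26.5 for ZNF385A. The remaining rises were ZNF358 (chromosome 19, 7515292 to 7521026; 0.42 ± 0.094, adjusted p = 0.000962), the KRAB gene ZNF777 (chromosome 7, 149431363 to 149461123; 0.39 ± 0.094, adjusted p = 0.00209) and ZNF581 (chromosome 19, 55635459 to 55645622; 0.36 ± 0.066, adjusted p = 5.28e-05). ZNF628 lies opposite ZNF628-DT, and ZNF581 shares exons with ZNF580 and CCDC106, and the rise of ZNF581 from 16.7 to 17.1 CPM up to 21.3 to 22.1 CPM was read from counts that were not whole in 24 libraries. All 16 of these genes passed under each of 14 other settings, with adjusted p of at most 0.0162.

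**Figure D3:**
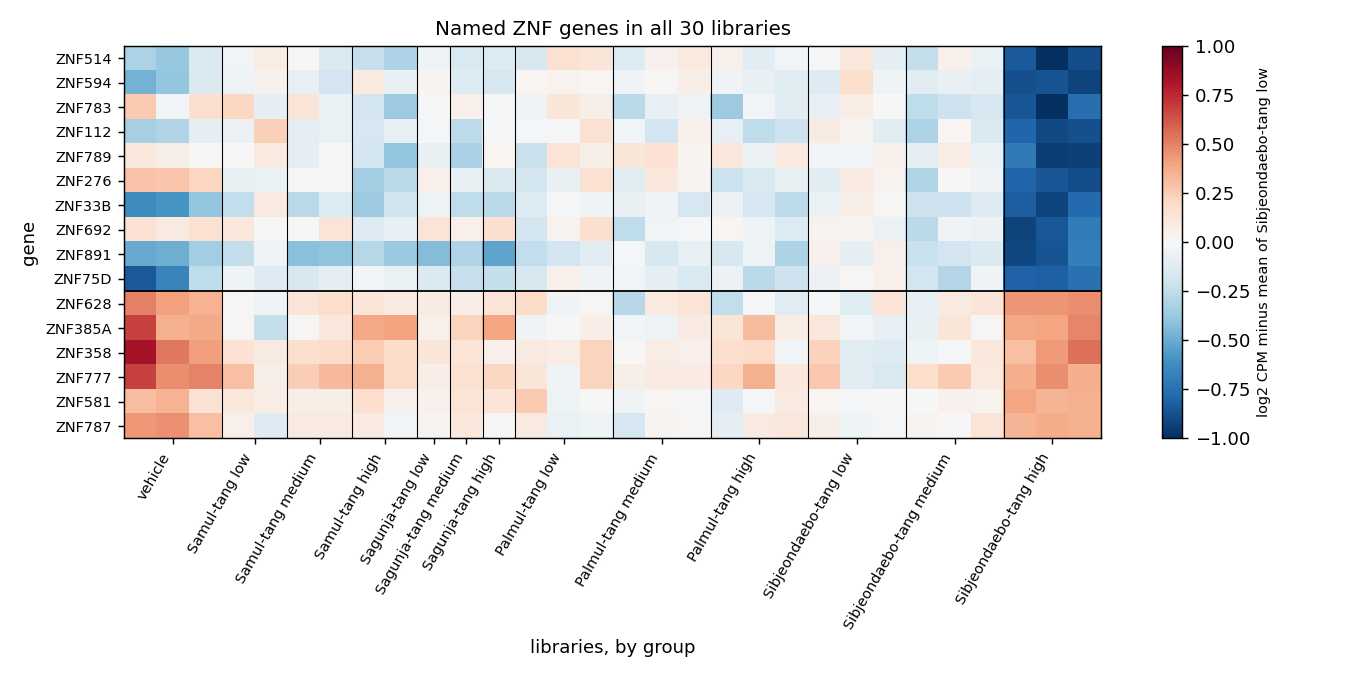
Each row is 1 of the 10 largest falls (upper block) and 6 largest rises (lower block) with Sibjeondaebo-tang, each column 1 of the 30 libraries, and colour gives log2 CPM minus the mean of Sibjeondaebo-tang low (blue lower, red higher). The rightmost 3 columns are Sibjeondaebo-tang high, which chose the rows, and the vehicle columns at the left are also red in the lower block.

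Members with a described role were listed by name. Of 34 listed genes 31 were members (ZNF91, ZNF93 and ZNF165 were not), of which 8 fell (25.8%), 4 rose (12.9%) and 19 did not pass, where 19.9% of all genes tested fell and 18.5% rose. The largest fall was in ZNF331, an imprinted KRAB gene, from 21.3, 21.9 and 20.9 CPM to 12.8, 14.1 and 14.1 (-0.65 ± 0.057, adjusted p = 1.53e-10). ZNF10 (KOX1), whose KRAB domain is used in repressor fusions, fell from 5.47, 6.20 and 5.77 to 3.45, 3.79 and 4.13 CPM (-0.61 ± 0.095, adjusted p = 5.21e-06). ZNF638, which brings the HUSH silencing complex to DNA that is not integrated in a chromosome, fell from 103, 105 and 106 to 74.3, 81.9 and 77.9 CPM (-0.42 ± 0.047, adjusted p = 1.2e-08). Each of the 3 had high values below all low values, and in ZNF10 and ZNF638 the high values overlapped vehicle.

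ZNF532, a partner of ZMYND8, fell by 0.4 ± 0.057 (adjusted p = 1.32e-06), while ZNF687 of the same complex rose by 0.22 ± 0.05 (adjusted p = 0.00059) and ZNF592 did not pass (0.097, adjusted p = 0.22). ZNF292 fell by 0.3 ± 0.066 (adjusted p = 0.000378) and ZNF335, a subunit of H3K4 methyltransferase complexes, by 0.21 ± 0.06 (adjusted p = 0.00491). The falls of ZNF326, of the DBIRD complex on spliced mRNA (-0.17, adjusted p = 0.0102), and of the SCAN factor ZNF24 (-0.13, adjusted p = 0.0156) were the smallest. They were lost in 4 and in 6 of 14 other settings, and that of ZNF335 without Sibjeondaebo-tang high replicate 1. The 2 factors of large ribosome subunit maturation both rose, ZNF593 by 0.3 ± 0.067 (adjusted p = 0.000718) and ZNF622 by 0.26 ± 0.062 (adjusted p = 0.00139), as did ZNF410, the activator of CHD4, by 0.21 ± 0.057 (adjusted p = 0.00427). These rises and that of ZNF687 were lost with library totals alone.

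The 19 that did not pass had log2 changes between -0.15 and 0.13. They include ZNF274, which recruits SETDB1 to ZNF genes (-0.094, adjusted p = 0.168), the promoter activator ZNF143 (0.049, adjusted p = 0.583), ZNF207 (0.011, adjusted p = 0.888), the corepressor partner ZNF217 (-0.023, adjusted p = 0.774), the collided ribosome sensor ZNF598 (0.063, adjusted p = 0.396), the splicing protein ZNF830 (0.04, adjusted p = 0.687) and ZNF350, which binds BRCA1 (-0.0015, adjusted p = 0.995). The factors of GC-rich promoters ZNF148 (0.13, adjusted p = 0.0635) and ZNF281 (-0.0078, adjusted p = 0.914), the G9a partner ZNF644 (-0.037, adjusted p = 0.598) and the SUMO ligase ZNF451 (-0.15, adjusted p = 0.0545) did not pass either. The same holds for ZNF263 (0.056), ZNF395 (0.098), ZNF318 (-0.047), ZNF384 (-0.12), ZNF202 (-0.039), ZNF268 (-0.062) and ZNF267 (0.014), whose adjusted p ran from 0.153 to 0.902. Some of the 19 passed under another setting. ZNF148 did with the GC offset (0.18, adjusted p = 0.00782) and with the GC and length offset (0.22, adjusted p = 0.00037), and ZNF207 (0.13, adjusted p = 0.0338) and ZNF592 (0.15, adjusted p = 0.0239) with the latter. With library totals alone ZNF274, ZNF217, ZNF281, ZNF644, ZNF451, ZNF318, ZNF384 and ZNF268 passed as lower. ZNF148 and ZNF395 passed as higher without Sibjeondaebo-tang high replicate 2, and ZNF384 as lower without low replicate 3.

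The proteins that KRAB zinc fingers work with were followed in a list of 41 genes, all tested. Of these, 15 rose and 9 fell, with a median of 0.071, a split that turned to 3 and 17 with library totals alone (median -0.082). On the TMM scale that is 36.6% and 22%, against 18.5% and 19.9% of all genes tested and 30% and 20% of the other protein-coding genes of at least 5 CPM, whose median was 0.053. TRIM28 itself went from 359, 338 and 339 CPM at the low dose to 447, 447 and 425 at the high dose (0.35 ± 0.043, adjusted p = 1.05e-07), and vehicle was 443 to 475. SUV39H1, a histone methyltransferase of heterochromatin, rose by 0.35 ± 0.07 (adjusted p = 0.000159) and SUMO2, whose product is attached to TRIM28, by 0.29 ± 0.037 (adjusted p = 2.42e-07); these 3 passed in all 14 other settings. SETDB1 went from 40.3, 39.0 and 36.3 to 34.6, 34.5 and 35.1 CPM (-0.15 ± 0.05, adjusted p = 0.017), a call lost in 6 of 14 settings, 5 of which left out a library. The HUSH subunit MPHOSPH8 fell by 0.42 ± 0.065 (adjusted p = 5e-06) and its partner PPHLN1 by 0.29 ± 0.041 (adjusted p = 1.24e-06). The DNA methyltransferase DNMT3A fell by 0.39 ± 0.052 (adjusted p = 4.18e-07), the chromatin remodeller ATRX by 0.34 ± 0.05 (adjusted p = 2.45e-06) and the NuRD remodeller CHD3 by 0.2 ± 0.04 (adjusted p = 0.000147), and these 5 passed in all 14 settings. Palmul-tang libraries, given here without a test, held CHD3 at 208.5 to 210.6 CPM (low dose) and 178.8 to 195.0 (high dose). SUV39H1 stood at 21.96 to 24.84 CPM and 26.05 to 30.47. SUMO2 was likewise higher and ATRX lower at that high dose without overlap. TRIM28, DNMT3A, PPHLN1 and MPHOSPH8 overlapped between these doses, and SETDB1 was higher at the high dose.

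The other formulas changed few members by dose. In Palmul-tang high against low, 1 member rose and 1 fell (22 with an unadjusted p under 0.05, median 0.01), where 1.46% of all genes tested rose and 2.02% fell. ZNF469, the gene of brittle cornea syndrome, went from 5.50, 5.42 and 6.26 CPM to 6.54, 7.69 and 7.82 (0.36 ± 0.095, adjusted p = 0.0251). ZNF467 (EZI, which acts in bone and fat cell formation) went from 7.91, 8.29 and 8.77 to 5.66, 6.40 and 6.92 CPM (-0.4 ± 0.1, adjusted p = 0.0189). In each the groups did not overlap, but the call of ZNF469 was lost in 6 of 14 other settings and that of ZNF467 without Palmul-tang low replicate 3 or high replicate 1. In Samul-tang, with 2 libraries a dose, 1 member rose and 1 fell (38 unadjusted, median -0.012), against 0.604% and 0.74% of all genes tested. ZNF385A went from 16.7 and 14.0 to 21.6 and 21.9 CPM (0.51 ± 0.098, adjusted p = 0.00347) and ZNF587 from 21.2 and 21.5 to 17.0 and 16.7 CPM (-0.34 ± 0.08, adjusted p = 0.0219). Leaving out any of the 4 Samul-tang libraries ended the call of ZNF587, and leaving out low replicate 3 or high replicate 2 that of ZNF385A. The KRAB sum of Samul-tang, which was not tested, was 2027 and 2061 CPM at the low and 1976 and 1986 CPM at the high dose. Its high libraries lay below its low ones in 21.7% of members (22.5% of all genes tested) and above them in 18.4% (22.5%).

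At the medium dose no member passed against the low dose in edgeR's test. For Sibjeondaebo-tang 19 members had an unadjusted p under 0.05, the median was -0.021 and the range -0.21 to 0.23, and of all genes tested 0.00565% rose and 0.00565% fell. For Palmul-tang 8 members did, and 0% of all genes rose and 0.00565% fell. DESeq2 also called 0 members in both. The KRAB sum of Sibjeondaebo-tang was nevertheless 1964 to 2002 CPM at the medium dose and 2027 to 2059 CPM at the low dose. Its sum of members without KRAB overlapped, at 3222 to 3251 and 3174 to 3301 CPM. All 3 medium libraries lay below all 3 low libraries in 28 members (1047 of 17701 genes tested) and above them in 11 (984 genes). These sums and counts were not tested. In the Sagunja-tang series, with 1 library a dose and no test, the KRAB sum was 1990, 1962 and 1950 CPM at the low, medium and high dose and the sum of the others 3259, 3233 and 3237 CPM, all above the Sibjeondaebo-tang high libraries.

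Sibjeondaebo-tang and Palmul-tang share no libraries in their dose comparisons, so that their changes can be set side by side. Across the 267 members the 2 sets of changes had a Spearman rho of 0.34, as a description over genes. Of the 100 members that fell with Sibjeondaebo-tang, 62 were below zero in Palmul-tang and 78 in Samul-tang, where 122 and 148 of all 267 were. Of the 32 that rose, 25 were above zero in Palmul-tang and 27 in Samul-tang. No member was called in the Palmul-tang comparison beyond those 2.

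**Figure D4:**
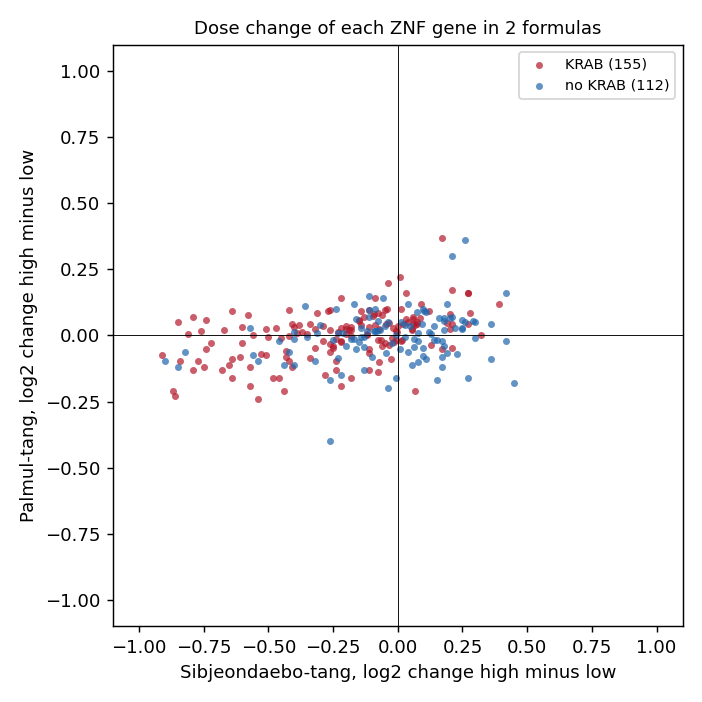
Each point is 1 of the 267 ZNF genes, with its log2 change between the low and high dose of Sibjeondaebo-tang on the horizontal and of Palmul-tang on the vertical axis, on equal scales. The points spread from -0.91 to 0.45 along the horizontal axis and from -0.4 to 0.37 along the vertical.

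The difference between the formulas was tested directly at matched doses. At the high dose, 98 members were lower and 20 higher in Sibjeondaebo-tang than in Palmul-tang (median -0.11), where 16% of all genes tested were lower and 14.3% higher. With library totals alone the counts were 137 and 6, as the median of all genes moved to -0.11. Of all genes tested, 4593 were then lower and 454 higher. KRAB members made up 67 of the 98 and 3 of the 20. ZNF789 (-0.91 ± 0.098, adjusted p = 1.45e-08), ZNF514 (-0.89, adjusted p = 1.35e-08), ZNF594 (-0.82, adjusted p = 2e-07) and ZNF337 (-0.79, adjusted p = 7.84e-11) were the furthest below. ZNF337, a KRAB gene on chromosome 20 whose reads may be shared with its antisense partner, had 16.1, 18.1 and 15.3 CPM in Sibjeondaebo-tang and 29.4, 28.9 and 27.2 in Palmul-tang at this dose. ZNF628 (0.58), ZNF581 (0.38), ZNF668 (0.35, adjusted p = 0.00054) and ZNF524 (0.33, adjusted p = 0.0157) were the furthest above without overlap. The call of ZNF524 was lost in 6 of 14 other settings, and the 20 higher calls became 13 without Palmul-tang high replicate 1.

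The low-to-high change itself differed between Sibjeondaebo-tang and Palmul-tang for 72 members in a test of that difference (interaction). In 66 the Sibjeondaebo-tang change was the lower and in 6 the higher, with a median of -0.13; of all genes tested 9.29% were lower and 5.59% higher. With library totals alone the counts were 111 and 3 and the median -0.25, as the median of all genes moved to -0.13. Of all genes tested, 3030 were then lower and 98 higher. All 66 belonged to the 100 that fell with Sibjeondaebo-tang, and all 6 to the 32 that rose. The interaction uses the same Sibjeondaebo-tang libraries that gave those calls, so that this overlap is no separate support. The comparisons of Sibjeondaebo-tang high with Palmul-tang high and with vehicle share its high libraries too. Of the KRAB members 47 were lower and 0 higher, and of the others 19 and 6. ZNF789 differed by -0.91 ± 0.13 (adjusted p = 8.75e-06), having changed by -0.85 in Sibjeondaebo-tang and 0.052 in Palmul-tang. ZNF589 (SZF1, a KRAB gene on chromosome 3) differed by -0.86 ± 0.14 (adjusted p = 4.34e-05), and its level was 4.77, 4.12 and 5.08 CPM at the Sibjeondaebo-tang high dose against 6.48 to 8.44 in the low-dose libraries of both formulas and 6.86 to 7.99 at the Palmul-tang high dose. ZNF628, with 0.63 ± 0.13 (adjusted p = 0.000879), was the furthest in the other direction, and its Palmul-tang change of -0.18 did not pass (adjusted p = 0.381). The 6 higher calls became 19 without Sibjeondaebo-tang low replicate 1, while the 66 lower calls stayed between 56 and 68 in number with any library left out.

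Against vehicle, extract and vehicle libraries differed even at the low dose: over the low doses of Samul-tang, Palmul-tang and Sibjeondaebo-tang together, 103 members were higher and 68 lower than vehicle (median 0.06), where 21.3% of all genes tested were higher and 21.2% lower. GC content went with the direction. Below 45% GC 88 of 134 members were higher and 3 lower, and at 55% or more 1 of 63 was higher and 50 lower, with a rho of -0.77 across the 267 members and -0.78 across the 10110 other protein-coding genes with a GC value. KRAB members, whose median GC content is lower, were higher in 74 cases and lower in 20, and the others in 29 and 48. With a GC offset the counts were 35 and 30, and 49 of the 171 calls remained. Of the 17570 genes in that fit, 1827 were higher and 2024 lower. ZNF302 (0.54 ± 0.05, adjusted p = 5.2e-10), a KRAB gene with 25.7, 25.8 and 27.7 CPM in vehicle and 36.3 to 39.9 in the 8 low-dose libraries used, still passed with the offset at 0.31, as did ZNF75D (0.53, then 0.47), ZNF780B (0.53, then 0.31) and ZNF189 (0.51, then 0.37). ZNF414 (-0.7 ± 0.13, adjusted p = 0.000111) passed with the offset at -0.43, while ZNF296 (-0.55), ZNF865 (-0.55) and ZNF358 (-0.52) did not, at -0.16, -0.088 and -0.11. The sample codes of the vehicle libraries begin differently from those of all extract libraries. In every comparison with vehicle, the extract and any difference between these sets of libraries therefore cannot be told apart. The cause of the relation with GC content was not tested.

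The same held at the high dose of Palmul-tang against vehicle, with 88 members higher and 63 lower (median 0.076; 19% and 18.1% of all genes tested) and 22 and 22 with the GC offset. With the offset, 1161 of 17570 genes were higher and 1329 lower. ZNF75A (0.53, adjusted p = 1.13e-06), ZNF189 (0.49), ZNF780B (0.48) and ZNF302 (0.47) were the most raised, and ZNF414 (-0.67, adjusted p = 0.00164), ZNF296 (-0.64), ZNF579 (-0.63) and ZNF467 (-0.61) the most lowered. Of these 8, ZNF780B, ZNF414, ZNF296 and ZNF467 did not pass with the offset. This comparison and the low-dose one share the 3 vehicle libraries.

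Sibjeondaebo-tang high against vehicle, which shares them too, had 91 members lower and 38 higher (median -0.1, against -0.03 over all genes; 21.8% of all genes tested lower and 20% higher). The counts were 143 and 14 with library totals alone and 101 and 20 with the GC offset, under which 83 of the 129 calls remained, 72 lower and 11 higher. Of all genes, 5562 were lower and 1839 higher with library totals alone, and 3442 and 3116 of 17570 with the offset. KRAB members had 52 lower and 24 higher, and the others 39 and 14. ZNF276 was the furthest below, at 16.8, 16.1 and 15.8 CPM against 35.6, 35.3 and 33.9 CPM in vehicle (-1.11 ± 0.079, adjusted p = 5.03e-12), followed by ZNF783 (-1.01, adjusted p = 1.98e-09), ZNF692 (-0.95, adjusted p = 1.15e-10) and ZNF789 (-0.92, adjusted p = 6.56e-09). With the GC offset these were -0.95, -0.85, -0.79 and -0.96. ZNF277 was the furthest above, at 21.9, 21.3 and 22.0 CPM against 13.02, 14.8 and 15.5 (0.59 ± 0.064, adjusted p = 5.92e-09), followed by ZNF420 (APAK, a KRAB protein that restrains p53; 0.58, adjusted p = 4.27e-05), ZNF561 (0.43) and ZNF614 (0.41), and all 4 passed with the offset.

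**Figure D5:**
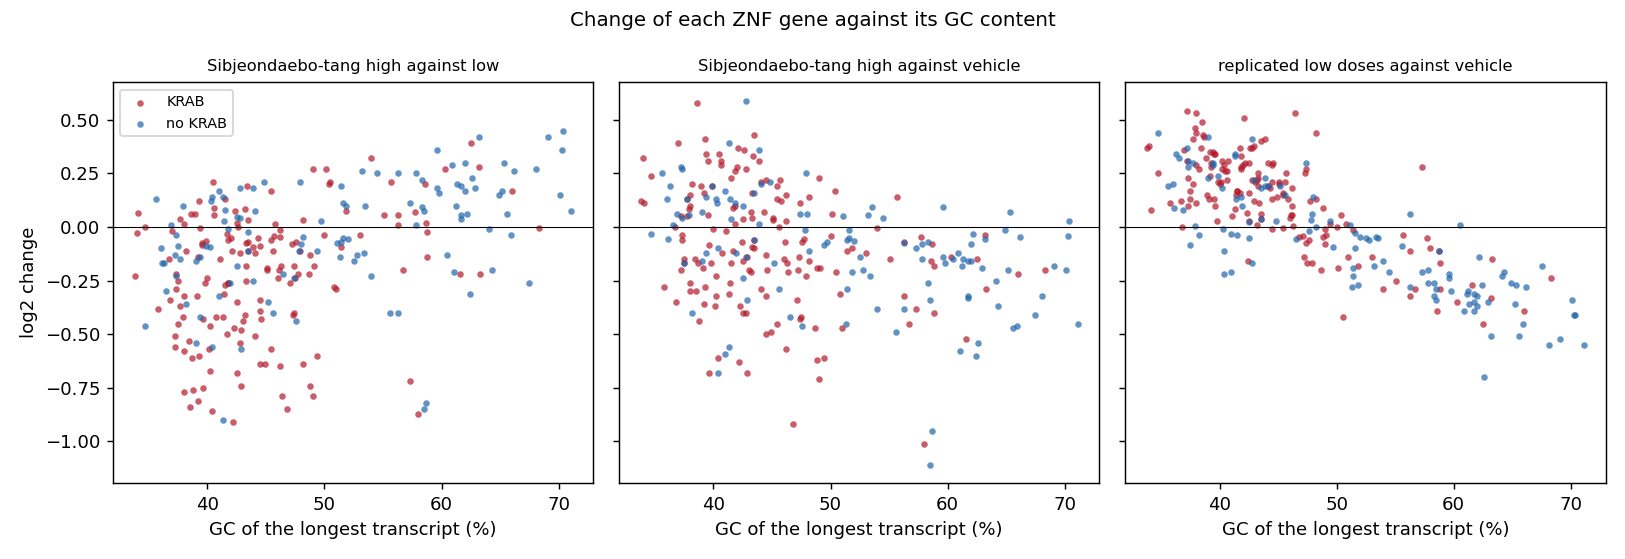
Each point is 1 of the 267 ZNF genes, with the GC content of its longest transcript (%) on the horizontal axis and its log2 change on the vertical axis, in 3 comparisons. The points rise with GC content in Sibjeondaebo-tang high against low (rho 0.4) and fall with it in Sibjeondaebo-tang high against vehicle (rho -0.34) and in the low doses against vehicle (rho -0.77).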

How the data were processed

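RNA of A549 cells from 30 libraries was measured. The authors deposited expected counts per gene, made, per the submitters' processing notes, with FastQC 0.11.9, Trim Galore 0.6.5, STAR 2.7.3a and RSEM 1.3.3 on hg38; the annotation release and the strand setting are not given in the sources used here. Per the labels' protocols the library kit was directional. Between 8.5 and 9.82% of the values in a library were not whole, and 240 columns of other samples in the table were not used. Counts were rounded and tested with edgeR 4.0.16 (TMM, filterByExpr, robust quasi-likelihood fit over all 13 groups with 17 residual degrees of freedom, Benjamini-Hochberg over 17701 genes, threshold 0.05) in R 4.3.3, with a script checked on simulated data. All 267 members, and 427 of the 509 candidates, passed the filter. Errors are the log2 change divided by the root of F.

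The members and gene lists were chosen with earlier results of these data known. Named were the 5 members of highest mean CPM, the 10 largest falls and 6 largest rises in Sibjeondaebo-tang high against low and up to 4 each way in other comparisons among calls without overlap, the listed roles, the 3 genes on each side of the minimum, and up to 8 partners with the smallest adjusted p beside TRIM28 and SETDB1. Symbols were matched for 56558 rows; GENCODE 29 symbols would change 2 members. GENCODE 29 transcripts gave GC content, overlaps, fingers and domains (pyhmmer 0.12.3, profiles of 286 KRAB and 22 SCAN sequences, E-value at most 0.0001), in place of the RefSeq proteins planned. Alternatives were DESeq2 1.42.0, other scalings, filters, groups and minima, a replicate block, each library left out, and, chosen after seeing the data, GC and length offsets fitted on 17570 genes. The length in these offsets is that of the longest transcript.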

Additional observations from a re-analysis of the deposited data

Results flagged for a closer look

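The low-to-high change differed between Sibjeondaebo-tang and Palmul-tang for 72 members in edgeR's test of that difference, fitted on 12 libraries of these groups within the fit of all 30. Named by size, the differences (Sibjeondaebo-tang minus Palmul-tang, log2) were -0.91 for ZNF789, -0.86 for ZNF589, -0.84 for ZNF514 and -0.82 for ZNF891 on the lower side. On the higher side they were 0.63 for ZNF628, 0.45 for ZNF581, 0.44 for ZNF358 (adjusted p = 0.0256) and 0.32 for ZNF219 (adjusted p = 0.00211). ZNF358 lost its call in 7 of 20 other settings and ZNF219 in 1, with library totals alone. The other 6 of these 8 genes passed in all 20. ZNF891 and ZNF789 overlap other genes on the opposite strand. Groups of 2 or 3 libraries are too small for a search for outlying samples.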

How the results depend on the processing

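Across 10 comparisons, 148 of 169 counts of called members under other settings were within 1.5 times the value given, and no named value turned direction while called. These counts join both directions and include the medium-dose comparisons, where every count was 0. With library totals alone the Sibjeondaebo-tang count of 132 became 162, within that range. Its split meanwhile went from 100 falls and 32 rises to 155 and 7. The Palmul-tang dose count of 2 became 1 with only the groups compared or with DESeq2, 0 at a mean CPM of at least 10, 4 with the GC offset and 6 with the GC and length offset, and 1 to 2 with a library left out. The Samul-tang count of 2 became 7 with library totals alone, 4 without the low-count filter, with only the groups compared or with the GC offset, 5 with the GC and length offset, and 0 to 2 with a library left out, where a lone library is assumed to vary like the other groups. The interaction count of 72 became 114 with library totals alone. Against vehicle, the GC offset and the GC and length offset gave 44 and 44 in place of 151 (Palmul-tang high) and 65 and 66 in place of 171 (low doses). With each library left out in turn, the count was 111 to 132 for Sibjeondaebo-tang high against low, 99 to 109 for the 2 high doses, 66 to 85 for the interaction, 104 to 123, 115 to 146 and 145 to 177 against vehicle and 0 to 0 at the medium doses. The interaction's higher calls, 6 in all, were 4 to 19. DESeq2 gave 118 for Sibjeondaebo-tang and a minimum of 10 CPM 96 of 169 members.

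Replicate numbers showed no pairing in the levels: deviations of same-numbered libraries correlated at a median of 0.00614 over 111 pairs. No such pair lay outside -0.122 to 0.0886, and other pairs ran from -0.148 to 0.137. These values do not tell whether same-numbered samples were handled together. With the replicate block, counts were 133 for Sibjeondaebo-tang, 2 for Palmul-tang, 3 for Samul-tang, 120 and 72 for the difference of the high doses and the interaction, and 128, 152 and 175 against vehicle.

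Of the 72 named values that passed, 51 passed in every setting. Depth limits the members near 5 CPM, of which 33 of 98 below 10 CPM fell, and groups of 1 to 3 libraries limit every comparison.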
